A study of Homo sapiens with 6 samples.

Results

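Ubiquitin-conjugating (E2) enzymes whose symbols begin with UBE2 were examined on expression arrays of T24, a widely used human bladder carcinoma line of urothelial origin. Of 29 matching symbols on probe sets assigned to 1 gene, 27 were protein-coding and were kept, out of 18132 genes measured. UBE2NL and UBE2Q2P13 are pseudogenes in the reference gene table and were left out. The 27 genes comprised 3 cell cycle members, UBE2C, UBE2S and UBE2T, and 24 others. The control group was 3 arrays of T24 cells labelled as normal, and what these cells received is unclear, because their labels repeat the treatment note of the MAP30 samples. The other group was 3 arrays of T24 cells that had MAP30 at 10 µg/ml, with collection 48 hours later. MAP30, from bitter melon (Momordica charantia), inactivates ribosomes by removing a base of their RNA. All cells were of 1 line, grown in medium with serum. The labels do not tell whether replicates came from separate cultures, and p-values then reflect only the spread among these arrays, which may be technical.

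Ubiquitin is attached to proteins by a relay. An E1 enzyme activates it, an E2 enzyme carries it on a cysteine, and an E3 ligase brings the loaded E2 to the substrate. The choice of E2 often sets the kind of chain that is built, and some E2 enzymes carry related modifiers such as NEDD8 or ISG15 instead of ubiquitin. UBE2C and UBE2S start and extend chains for the anaphase-promoting complex in mitosis, and UBE2T serves the Fanconi anaemia pathway of DNA crosslink repair.

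Promoter sequences are shown for UBE2T and UBE2S because these members of the cell cycle group did not move alike. UBE2C, the remaining member, had no entry in the promoter table, so its promoter was not searched. Each line gives the 250 bases before the RefSeq transcript start (GRCh38.p14), 5′ to 3′ on the gene's strand. Capitals mark matches to the cell cycle homology element TTTGAA, the CCAAT box or the cyclic AMP response element TGACGTCA, on either strand.
UBE2T, chr1:202341937-202342186, minus strand: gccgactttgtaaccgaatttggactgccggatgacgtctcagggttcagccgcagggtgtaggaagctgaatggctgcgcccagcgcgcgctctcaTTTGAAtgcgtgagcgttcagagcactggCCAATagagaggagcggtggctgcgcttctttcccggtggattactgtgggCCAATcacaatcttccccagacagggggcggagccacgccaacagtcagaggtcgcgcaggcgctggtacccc
UBE2S, chr19:55407789-55408038, minus strand: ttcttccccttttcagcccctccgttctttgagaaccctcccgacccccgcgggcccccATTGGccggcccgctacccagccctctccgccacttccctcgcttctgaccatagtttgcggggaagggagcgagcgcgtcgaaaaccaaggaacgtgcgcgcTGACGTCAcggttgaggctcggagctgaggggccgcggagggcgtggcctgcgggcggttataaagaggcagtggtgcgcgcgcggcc

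The UBE2T window held 1 match to TTTGAA, beginning 153 bases before the start, and 2 CCAAT boxes, beginning 124 and 73 bases before it. The UBE2S window held 1 reversed CCAAT box, beginning 191 bases before the start, and 1 TGACGTCA, beginning 88 bases before it. It held no TTTGAA. Over all 35116 RefSeq promoter windows of the same length, 13.3% held TTTGAA, 32.0% a CCAAT box and 1.65% TGACGTCA. Of the 27 members, 22 matched the promoter table by symbol, with 29 windows, of which 3 held TTTGAA (UBE2T, UBE2F and UBE2U), 7 a CCAAT box and 1 TGACGTCA. Of the 3 with TTTGAA, UBE2T was lower with MAP30, UBE2F was higher (0.26) and UBE2U did not pass the threshold given below. GGCGGGAA (E2F), the interferon-stimulated response element, TGANTCA (AP-1) and TGATGNAA (amino acid response) were found in 0 of the 29 windows, against 2.72%, 3.02%, 6.57% and 3.14% of all windows. TTTGAA, TGACGTCA and the other motifs do not contain one another or the CCAAT box. A match is a description of the letters, not a bound site.

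The deposited values are on a log scale, read as log2, and each probe set was centred on its median over the 6 arrays. A value therefore has no level, only a difference between arrays, and levels of different genes cannot be set against each other. The labelled cell type likewise could not be checked by the level of urothelial genes. Of all genes, 26.9% were higher with MAP30 and 30.6% lower. Of 12 urothelial markers 3 were higher with MAP30 and 2 lower, of 6 measured leukocyte markers 3 higher and 1 lower, of 5 endothelial markers 2 higher and of 5 fibroblast markers 1 higher. These counts were unstable: the endothelial count was 0 on leaving out any 1 array but MAP30 replicate 2, and the fibroblast count was 0 without control replicate 1 or 2 or MAP30 replicate 2 or 3. With hybridization-control centring 0 endothelial and 0 fibroblast markers were higher, 3 and 4 were lower, and 7 urothelial markers were lower; with poly-A-control centring 5 of 5 were higher in both of the smaller lists. Their part in the results was not tested. The SD of the difference between arrays over all genes ran from 0.105 to 0.121 within groups and from 0.617 to 0.621 between groups. The log2 ratio of 3′ over 5′ control probe sets was higher with MAP30 by 0.158 for ACTB and 0.0426 for GAPDH, which falls on the same grouping as every comparison given here, and its part was not tested. Spiked-in hybridization controls were higher with MAP30 by a mean of 0.209 and spiked-in poly-A controls lower by a mean of -0.164, so small differences depend on how arrays are scaled: the largest E2 difference to lose its call under either centring was 0.36, in UBE2Q1.

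MAP30 and control arrays differed in most E2 genes, in both directions. By limma with Benjamini-Hochberg adjustment over all 18132 genes, at an adjusted p under 0.05, 14 of the 27 members were lower with MAP30, 7 were higher and 6 did not pass. Among all genes 30.6% were lower and 26.9% higher, so 57.5% passed. The median difference of the 27 members was -0.25 on the log2 scale, against -0.02 over all genes. The groups did not overlap in 23 of the 27 members, against 62.6% of all genes. A difference of at least 0.5 on the log2 scale was met by 12 members that passed, against 26.4% of all genes. At least a doubling or halving was met by 1 member that was higher and 3 that were lower, against 5.42% and 4.13% of all genes. UBE2L6, the E2 for ISG15, had the largest fall at 3.73-fold, and UBE2J2, an E2 anchored in the endoplasmic reticulum membrane, the largest rise at 3.26-fold. The counts moved with scaling, to 4 higher and 20 lower when arrays were centred on hybridization controls and to 11 higher and 12 lower when centred on poly-A controls.

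**Figure D1:**
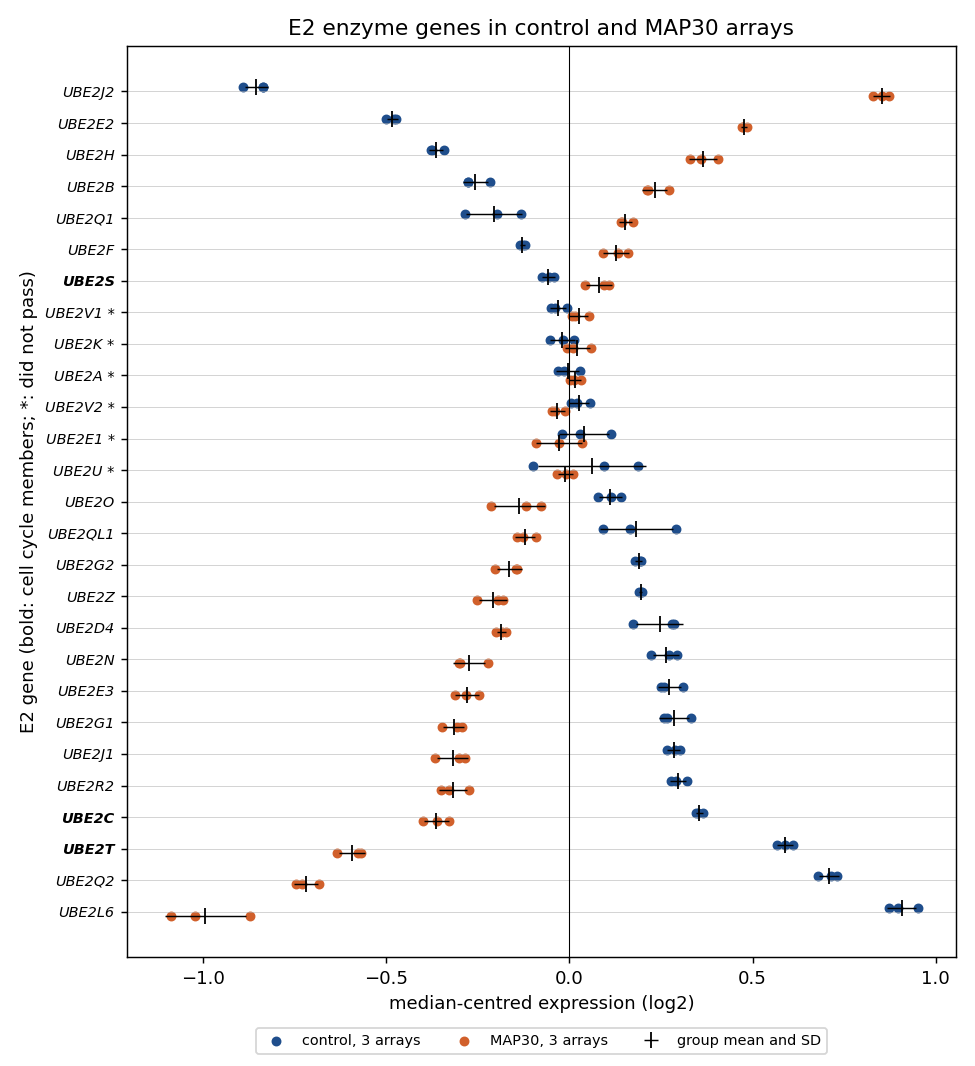
Median-centred log2 expression (x axis) of the 27 E2 genes (rows, ordered by difference) in the 3 control arrays (blue) and the 3 MAP30 arrays (orange), with group mean and SD in black; an asterisk marks the 6 genes that did not pass. The groups are widest apart in UBE2L6 (-1.90) and UBE2J2 (1.71) and overlap in UBE2A, UBE2E1, UBE2K and UBE2U.

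The cell cycle members did not share a direction. UBE2T, which works with the ligase FANCL, had values of 0.61, 0.59 and 0.57 in control and -0.63, -0.58 and -0.57 with MAP30. Every MAP30 array was below every control array, and UBE2T was 2.27-fold lower (log2 difference -1.18 ± 0.04 SE, n = 3 per group; limma adjusted p = 1.05e-07). UBE2C, which starts chains on substrates of the anaphase-promoting complex, stood at 0.37, 0.35 and 0.35 in control and at -0.40, -0.33 and -0.36 with MAP30. It was 1.65-fold lower (-0.72 ± 0.03 SE; limma adjusted p = 8.98e-07), and all 4 of its probe sets were lower, by -0.79 to -0.64.

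UBE2S, which extends those chains through lysine 11 of ubiquitin, had values of -0.04, -0.05 and -0.08 in control and 0.04, 0.11 and 0.09 with MAP30. The groups did not overlap, but in the opposite sense to UBE2C and UBE2T, and UBE2S was 1.10-fold higher (0.14 ± 0.03 SE; limma adjusted p = 0.00969) on its single probe set. This rise depended on scaling: with hybridization-control centring UBE2S was at -0.07 and did not pass (adjusted p = 0.298).

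Differences between genes within an array do not change when the whole array is shifted, as in the control centrings. UBE2C minus UBE2S was 0.41, 0.41 and 0.42 in control and -0.44, -0.44 and -0.46 with MAP30, a difference of -0.86 ± 0.01 SE. The SE of a pair came from the spread of its 3 arrays per group alone. That of a single gene is limma's moderated SE, so the sizes of the SEs cannot be set side by side. UBE2C minus UBE2T was -0.24, -0.24 and -0.22 in control and 0.24, 0.25 and 0.21 with MAP30, a difference of 0.46 ± 0.01 SE, so the fall of UBE2T was the larger. Both had a two-sided exact permutation p of 0.1, and 0.1 after adjustment over the 10 gene pairs compared, the smallest that 3 arrays against 3 can give. Quantile normalization, which gives all arrays the same distribution, did move them, UBE2C minus UBE2S to -0.88 and UBE2C minus UBE2T to 0.55. The mean of the 3 cell cycle members minus the mean of the 24 others was 0.24, 0.22 and 0.21 in control and -0.23, -0.21 and -0.20 with MAP30. That difference of -0.44 is a description and carries no test, and it rests on UBE2C and UBE2T. Among the 24 other members 12 were lower, 6 higher and 6 did not pass, with a median of -0.16.

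More of the measured partners of the cell cycle members were lower with MAP30 than higher. Among all genes 30.6% were lower and 26.9% higher. Of 17 genes of the anaphase-promoting complex and its regulators 9 were lower, 3 higher and 5 did not pass, with a median of -0.15. FBXO5, an inhibitor of the complex, was lower by a log2 difference of -1.19, the subunit gene ANAPC5 by -0.82, ANAPC16 by -0.58, and CDC20, the mitotic activator, by -0.51. ANAPC10 (0.77), ANAPC13 (0.26) and CDC27 (0.19) were higher. This list had 1 higher gene and 13 lower ones with hybridization-control centring; poly-A-control centring gave 6 higher and 7 lower. Of 10 measured Fanconi genes 7 were lower, with a median of -0.51. FANCL, the ligase that UBE2T serves, was lower by -1.56, FANCI, a substrate of that pair, by -1.30, and FANCG by -1.15. FANCM, a DNA translocase, was higher by 0.63. Of 20 mitotic and G2 genes 19 were lower, with a median of -1.09, and CENPE (0.64) was higher. The difference of UBE2T lay near that median and the difference of UBE2C was smaller than it.

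UBE2L6 charges ISG15, a ubiquitin-like protein induced by interferon, and passes it to the ligase HERC5. Its single probe set is of class _s_at, so the gene has no value when restricted to _at and _a_at probe sets. That probe set had values of 0.95, 0.87 and 0.90 in control and -1.09, -0.87 and -1.02 with MAP30. MAP30 arrays were all lower, with more spread (SD 0.11) than control arrays (SD 0.04), and the log2 difference was -1.90 ± 0.06 SE (limma adjusted p = 1.24e-07). UBA7, the E1 of ISG15, was lower by -0.77, HERC5 by -0.55 and HERC6 by -0.23. ISG15 itself was higher by 0.49 on 1 probe set. When restricted to _at and _a_at probe sets, 0 genes of the pathway were higher. Of these 5 measured genes of the pathway, UBE2L6 included, 4 were lower and 1 higher, against 30.6% and 26.9% of all genes.

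E2 enzymes of endoplasmic reticulum-associated degradation moved apart. UBE2J2 had values of -0.84, -0.84 and -0.89 in control and 0.83, 0.87 and 0.85 with MAP30. Its log2 difference was 1.71 ± 0.03 SE (limma adjusted p = 2.19e-08), and its 5 probe sets rose by 1.56 to 1.78. UBE2J1, the other membrane-anchored E2, stood at 0.30, 0.27 and 0.29 in control and at -0.37, -0.30 and -0.29 with MAP30. It was 1.52-fold lower (-0.60 ± 0.04 SE; limma adjusted p = 3.27e-06), with all 4 probe sets lower. Within arrays UBE2J1 minus UBE2J2 was 1.14, 1.10 and 1.18 in control and -1.20, -1.18 and -1.14 with MAP30, a difference of -2.31 ± 0.03 SE (exact permutation p = 0.1), the largest of the 10 pairs. With quantile normalization that difference was -2.13.

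UBE2G2, the soluble E2 of the same route, was at 0.19, 0.18 and 0.19 in control and at -0.20, -0.15 and -0.14 with MAP30. It was lower by -0.35 ± 0.03 SE (limma adjusted p = 4.72e-05), with 3 probe sets lower and 1, at 0.09, that did not pass. When restricted to _at and _a_at probe sets it stood at -0.16 (adjusted p = 0.0258). Of 7 measured genes of its ligase complexes 3 were lower and 2 higher, against 30.6% and 26.9% of all genes. SEL1L, an adaptor of the ligase SYVN1, was lower by -0.56, MARCHF6, a ligase that works with UBE2J2 and UBE2G2, by -0.44, and SYVN1 by -0.34. RNF185 (0.84) and RNF139 (0.14; limma adjusted p = 0.046) were higher. The count of higher genes was 1 without control replicate 1 or 3 or MAP30 replicate 1 or 2 and with hybridization-control centring, and 0 when restricted to _at and _a_at probe sets, which leave out RNF185. AUP1, which recruits UBE2G2, was at -0.10 and did not pass, nor did RNF5 (0.01).

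**Figure D2:**
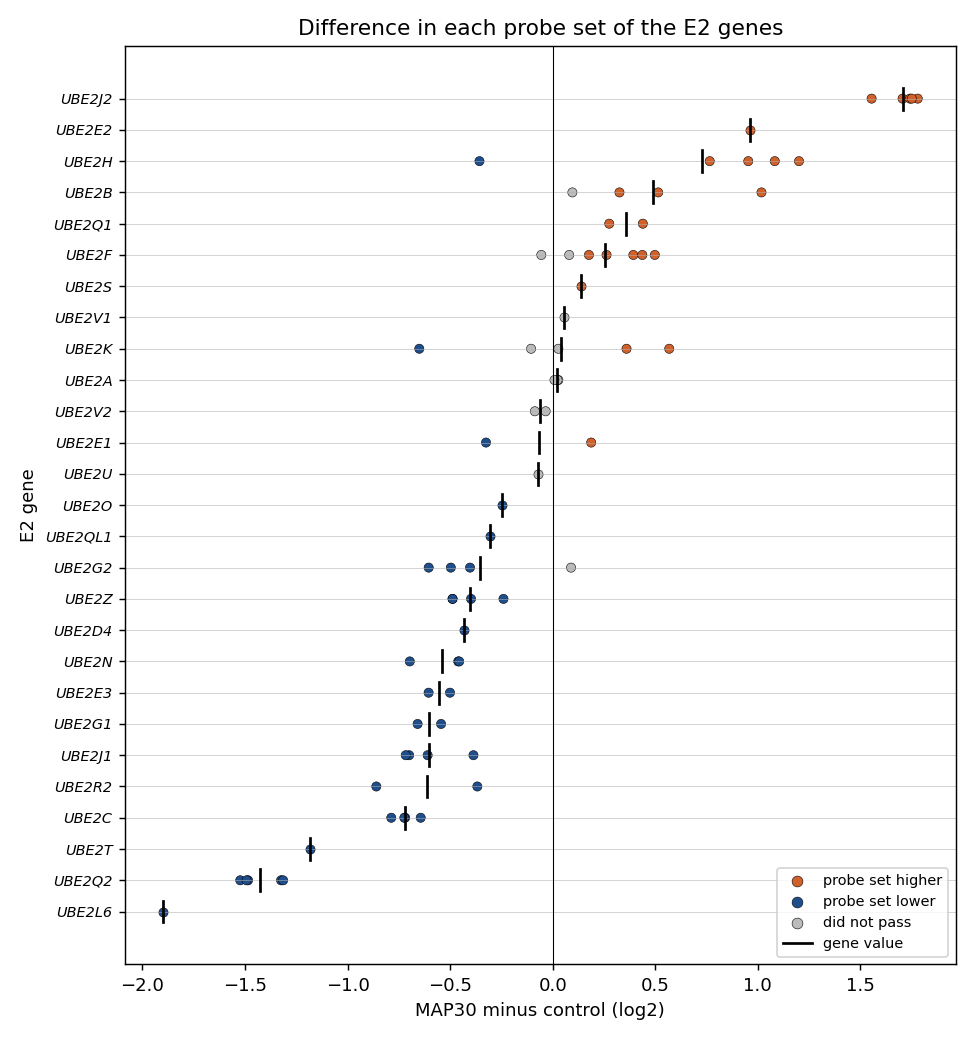
Log2 difference of MAP30 minus control (x axis) for each of the 74 probe sets of the 27 E2 genes (rows), coloured by limma call, with the gene value as a black line. The probe sets of UBE2J2 and UBE2Q2 lie close together, while those of UBE2H, UBE2K and UBE2E1 fall on both sides of 0.

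UBE2Q2 and UBE2Q1 are E2 enzymes with a long N-terminal extension. UBE2Q2 had values of 0.73, 0.72 and 0.68 in control and -0.75, -0.73 and -0.68 with MAP30. It was 2.69-fold lower (-1.43 ± 0.04 SE; limma adjusted p = 4.95e-08), and its 5 probe sets fell by -1.52 to -1.31. UBE2Q2 has pseudogene copies, and a probe set assigned to UBE2Q2P13 alone was also lower, by -0.92, so signal of the gene and of its copies may not be separable. UBE2Q1 went the other way, from -0.13, -0.20 and -0.29 in control to 0.14, 0.17 and 0.14 with MAP30. Its difference was 0.36 ± 0.05 SE (limma adjusted p = 0.000257), and it did not pass with hybridization-control centring (0.15; adjusted p = 0.0504). Within arrays UBE2Q1 minus UBE2Q2 differed by 1.79 ± 0.04 SE (exact permutation p = 0.1), and by 2.00 with quantile normalization. When restricted to _at and _a_at probe sets that difference was 1.68. UBE2QL1, a related gene, was lower by -0.30 ± 0.05 SE on 1 probe set, and did not pass with poly-A-control centring (-0.14; adjusted p = 0.0692).

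UBE2E1, UBE2E2 and UBE2E3 share a catalytic fold and an N-terminal extension. UBE2E2 rose from -0.50, -0.48 and -0.47 in control to 0.47, 0.49 and 0.47 with MAP30. It was 1.95-fold higher (0.96 ± 0.03 SE; limma adjusted p = 1.5e-07) on 1 probe set. UBE2E3 fell from 0.31, 0.26 and 0.25 to -0.28, -0.25 and -0.31, a difference of -0.55 ± 0.04 SE (limma adjusted p = 5.32e-06) with both probe sets lower. UBE2E1 was at 0.11, 0.03 and -0.02 in control and at 0.03, -0.03 and -0.09 with MAP30. The groups overlapped and it did not pass (-0.07 ± 0.05 SE). Its gene value averages a probe set at -0.32 and another at 0.19, which were called in opposite directions. Within arrays UBE2E1 minus UBE2E2 differed by -1.03 ± 0.06 SE and UBE2E1 minus UBE2E3 by 0.48 ± 0.04 SE (exact permutation p = 0.1 for each). When restricted to _at and _a_at probe sets these differences were -1.285 and 0.28. UBE2D4, of the UBE2D family of broadly acting E2 enzymes, was at 0.28, 0.17 and 0.29 in control and at -0.17, -0.18 and -0.20 with MAP30, lower by -0.43 ± 0.04 SE (limma adjusted p = 4.59e-05).

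UBE2A and UBE2B are the human counterparts of yeast Rad6, which ubiquitinates histone H2B with RNF20 and RNF40 and the sliding clamp PCNA with RAD18. UBE2B was at -0.28, -0.28 and -0.22 in control and at 0.21, 0.27 and 0.21 with MAP30. It was 1.40-fold higher (0.49 ± 0.04 SE; limma adjusted p = 1.15e-05), though its 4 probe sets ran from 0.10, which did not pass, to 1.02. UBE2A was at 0.03, -0.01 and -0.03 in control and at 0.00, 0.03 and 0.01 with MAP30, and did not pass (0.02 ± 0.03 SE). Within arrays UBE2A minus UBE2B differed by -0.47 ± 0.04 SE (exact permutation p = 0.1), and by -0.28 when restricted to _at and _a_at probe sets. RAD18 (0.83), RNF40 (0.59) and RNF20 (0.53) were higher.

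UBE2N builds lysine 63 chains in a dimer with UBE2V1 or UBE2V2, which resemble E2 enzymes but lack the active cysteine. UBE2N was at 0.27, 0.29 and 0.22 in control and at -0.30, -0.22 and -0.30 with MAP30. It was 1.45-fold lower (-0.54 ± 0.04 SE; limma adjusted p = 9.44e-06), with all 3 probe sets lower. UBE2V1 was at -0.01, -0.04 and -0.05 in control and at 0.01, 0.05 and 0.01 with MAP30, and UBE2V2 at 0.02, 0.06 and 0.00 in control and at -0.04, -0.01 and -0.05 with MAP30. Neither UBE2V1 (0.06 ± 0.03 SE) nor UBE2V2 (-0.06 ± 0.03 SE) passed, though their values did not overlap between groups. UBE2V1 minus UBE2V2 differed by 0.12 ± 0.02 SE within arrays (exact permutation p = 0.1). The UBE2V1 value rests on 1 probe set. Another 4, which the annotation gives to UBE2V1 and the readthrough gene PEDS1-UBE2V1 together, were not used. These stood at -0.66, -0.40, -0.40 and 0.02. Those at -0.40 had the same values to within 0.005 and are not separate measurements. A list of 9 ligases and regulators of lysine 63 chains and DNA damage tolerance holds RAD18, RNF20 and RNF40, given with UBE2A and UBE2B. Of the 9, 5 were higher, against 26.9% of all genes. The other two were TRAF6 (0.98) and OTUB1 (0.28), an inhibitor of UBE2N. HLTF, which extends chains on PCNA, was lower by -1.43, and SHPRH (0.16), RNF168 (0.11) and RNF8 (-0.12) did not pass.

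**Figure D3:**
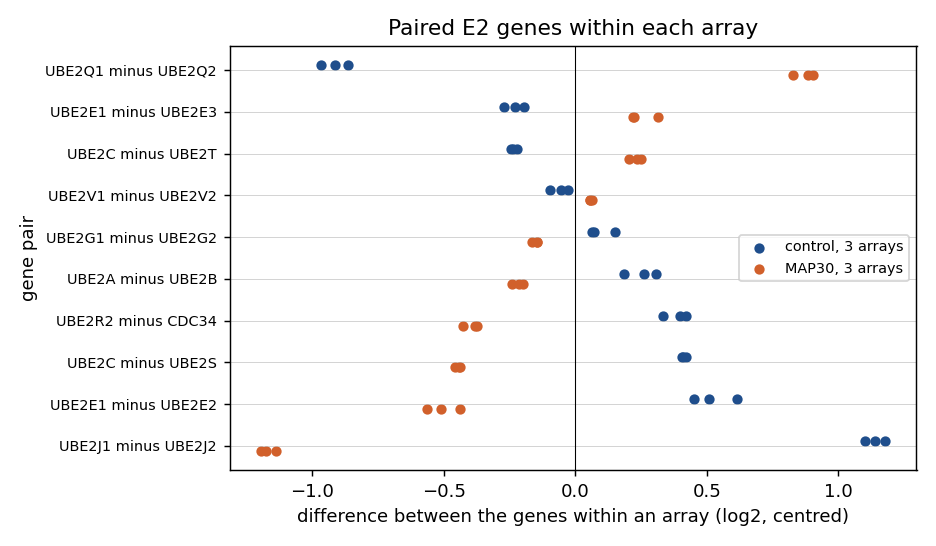
Difference between paired E2 genes within each array (x axis, log2, centred) for the 10 pairs (rows), with control arrays in blue and MAP30 arrays in orange. Only the gap between the colours has meaning, since the values were centred; it is widest for UBE2J1 minus UBE2J2 (-2.31) and narrowest for UBE2V1 minus UBE2V2 (0.12).

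Among the E2 enzymes of cullin-RING ligases, UBE2R2 and UBE2G1 extend lysine 48 chains. UBE2R2 was at 0.29, 0.28 and 0.32 in control and at -0.35, -0.33 and -0.28 with MAP30, lower by -0.61 ± 0.04 SE (limma adjusted p = 2.8e-06). Its probe sets stood at -0.86 and -0.37. CDC34, its close relative under another name, was at -0.04, -0.12 and -0.10 in control and at 0.08, 0.05 and 0.10 with MAP30. It was higher by 0.16 ± 0.04 SE (limma adjusted p = 0.00626), but stood at -0.05 with hybridization-control centring (adjusted p = 0.488). Within arrays UBE2R2 minus CDC34 differed by -0.78 ± 0.03 SE (exact permutation p = 0.1), and by -1.03 when restricted to _at and _a_at probe sets. UBE2G1 was at 0.27, 0.33 and 0.26 in control and at -0.35, -0.29 and -0.31 with MAP30, lower by -0.60 ± 0.04 SE (limma adjusted p = 3.77e-06). UBE2G1 minus UBE2G2 differed by -0.25 ± 0.03 SE (exact permutation p = 0.1), and by -0.50 when restricted to _at and _a_at probe sets.

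UBE2F charges NEDD8, the modifier that activates cullins, and acts with RNF7 on CUL5. It was at -0.14, -0.12 and -0.13 in control and at 0.09, 0.16 and 0.13 with MAP30, higher by 0.26 ± 0.03 SE (limma adjusted p = 0.000323). Of its 7 probe sets 5 were higher and 2 did not pass, and with hybridization-control centring the gene stood at 0.05 and did not pass (adjusted p = 0.472). Another 2 probe sets, which the annotation gives to UBE2F and other genes together, were not used and stood at 0.14 and -0.24. RNF7 (0.50) and CUL5 (0.27) were higher, and NEDD8 (-0.23) and NAE1 (-0.60), a subunit of its E1, lower. UBA3, the catalytic subunit of that E1, was at 0.09 and did not pass. Of the 4 RNF7 probe sets 2 did not pass, and the 4 ran from -0.03 to 1.48. Of 14 cullin-RING and neddylation genes 6 were higher, with DCUN1D3 (0.84), and 7 lower, with CUL1 (-0.72), while CUL3 (-0.05) did not pass. The shares over all genes were 26.9% higher and 30.6% lower.

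UBE2H, the E2 of the CTLH ligase, was at -0.34, -0.37 and -0.38 in control and at 0.33, 0.36 and 0.41 with MAP30. It was 1.66-fold higher (0.73 ± 0.04 SE; limma adjusted p = 1.05e-06). Of its 5 probe sets 4 rose by 0.77 to 1.20 and 1 fell by 0.36. UBE2K, which builds lysine 48 chains and carries a ubiquitin-binding domain, did not pass as a gene (0.04 ± 0.04 SE), but its 5 probe sets ran from -0.65 to 0.57, with 2 called higher and 1 lower. Probe sets were called in both directions in 3 of the 18 members with several probe sets, UBE2E1, UBE2H and UBE2K, against 7.24% of such genes overall. Of all 74 member probe sets 37 were lower and 24 higher, against 30.3% and 26.5% of all single-gene probe sets.

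UBE2Z takes ubiquitin from the E1 enzyme UBA6 rather than UBA1. It was at 0.20, 0.19 and 0.20 in control and at -0.25, -0.19 and -0.18 with MAP30, lower by -0.40 ± 0.03 SE (limma adjusted p = 2.38e-05). Its 4 probe sets were all lower, but 2 of them had the same values to within 0.005 and are not separate measurements. UBA6 was higher by 0.62, but 2 of its 4 probe sets did not pass, and the 4 ran from -0.08 to 2.22. UBA1 was at 0.09 and did not pass, though 1 of its 2 probe sets, at 0.33, was called higher. UBE2O, a large enzyme that acts as both E2 and E3, was at 0.08, 0.11 and 0.14 in control and at -0.12, -0.21 and -0.08 with MAP30, lower by -0.25 ± 0.04 SE (limma adjusted p = 0.00184). With poly-A-control centring it stood at -0.08 and did not pass (adjusted p = 0.111). UBE2U did not pass (-0.07 ± 0.07 SE), with control values from -0.10 to 0.19.

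The other steps of the relay also moved both ways. Beside the counts that follow stand the shares over all genes, 26.9% higher and 30.6% lower. Of 7 measured E1 genes 2 were higher and 3 lower, with UBA7 (-0.77), SAE1 (-0.62), a subunit of the SUMO E1, and ATG7 (0.31), the E1 of autophagy. Of 8 measured modifier genes 3 were higher, ATG12 (1.00), UFM1 (0.62) and ISG15 (0.49), and 4 lower, SUMO3 (-1.13), SUMO2 (-0.52), NEDD8 (-0.23) and the polyubiquitin gene UBB (-0.19), while URM1 (-0.01) did not pass. Of 8 E2 and E2-like genes with other names 5 were higher, including TSG101 (0.88), which lacks the active cysteine, ATG3 (0.57) and BIRC6 (0.45), and 2 lower, ATG10 (-0.55) and AKTIP (-0.16), while UFC1 (0.06) did not pass. Of 10 SUMO ligases and proteases 6 were higher, with RANBP2 at 1.05, and 2 lower, PIAS3 (-0.36) and PIAS1 (-0.16). The SUMO list had 5 higher on leaving out any 1 array, and its balance turned to 2 higher and 4 lower with hybridization-control centring. RBR ligases take ubiquitin from E2 enzymes onto their own cysteine. Of 11 genes, which were RBR ligases and the accessory subunit SHARPIN, 6 were higher, with RNF19A at 0.62, and 4 lower, with RBCK1 at -0.53. That balance turned to 2 higher and 5 lower with hybridization-control centring. Under that centring 1 E1 gene was higher and 3 lower, and 3 of the E2 and E2-like genes with other names were higher and 3 lower. With poly-A-control centring 4 E1 genes were higher and 3 lower, and modifier genes numbered 4 higher and 2 lower.

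**Figure D4:**
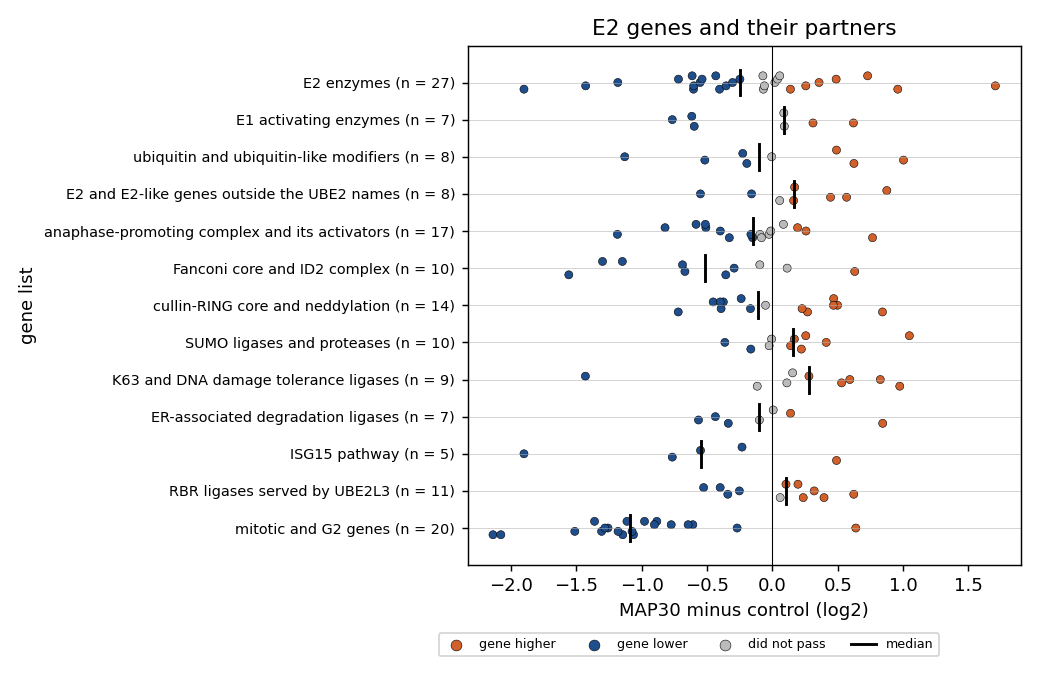
Log2 difference of MAP30 minus control (x axis) for the 27 E2 genes and 12 lists of partner genes (rows, with the number measured), coloured by limma call, with list medians in black. The mitotic and G2 genes lie to the left (median -1.09), whereas the E2 genes spread from -1.90 to 1.71.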

How the data were processed

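The deposited table holds log2 values of 49395 probe sets on 6 arrays; the base is not stated and was read as 2. RMA and MAS5 are named without a role, per the submitters' processing notes. In the deposited values each probe set is centred on its median over the arrays, to within 5e-07, and the number of arrays limits the precision. RNA was amplified from 3′ ends and biotin-labelled, per the labels' protocols. Probe sets were named through the platform annotation: 44988 had 1 symbol, 1832 several, 2473 none and 102 were controls. No symbol changed in the reference gene table. Single-symbol probe sets were averaged per gene, with no filter.

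MAP30 was compared with control by limma 3.58.1 (R 4.3.3; lmFit, eBayes, two-sided, Benjamini-Hochberg over all genes or probe sets), tested on simulated data. Within-array gene differences were compared by exact permutation, and their SE is the unmoderated one. Of 15 planned pairs 5 could not be made. Tables used pandas 2.3.3, scipy 1.17.1 and numpy 2.4.6 under Python 3.11.15, and figures matplotlib 3.10.9. Members, lists and motifs were chosen with earlier results of these data known. Every E2 gene could be named; array values were given for those passing at 0.5 or more, paired genes and cell cycle members, and were added for UBE2D4, UBE2F, UBE2O and UBE2Z. Of partner lists, all members or up to 4 with the largest change, and those moving against the majority, could be named; others named were chosen after their values were seen.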

Additional observations from a re-analysis of the deposited data

How the results depend on the processing

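The count of higher E2 genes was 4 with arrays centred on hybridization controls, 11 with poly-A-control centring and 7 under each other alternative. Those restricted to _at and _a_at probe sets were not the same 7, since UBE2S has no value there and UBE2K (0.21) was higher. Neither UBE2L6 nor UBE2V1 has a value there, and the 14 lower genes held UBE2E1 (-0.32) in place of UBE2L6. Under that restriction the cell cycle members minus the other members stood at -0.88. There the cell cycle mean holds only UBE2C and UBE2T, so it is not the same quantity as with UBE2S. With all members the difference ran from -0.45 to -0.43 without any 1 array. Signs turned with hybridization-control centring for UBE2A (-0.19), UBE2K (-0.17), UBE2S (-0.0698), UBE2V1 (-0.15) and CDC34 (-0.0455), and with poly-A-control centring for UBE2E1 (0.10), UBE2U (0.0918) and UBE2V2 (0.10). UBE2A, UBE2K, UBE2V1 and UBE2V2 passed under both centrings, lower with hybridization-control and higher with poly-A-control centring. The median of all genes moved from -0.02 to -0.23 and 0.14 under these centrings, and the cause was not tested.

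Replicate numbers did not pair the arrays: deviations of same-numbered arrays correlated at -0.04 to 0.07. With the replicate number as a block, 7 E2 genes were higher and 14 lower, as without it, and 23 and 37 probe sets. Without any 1 array the counts of higher genes stayed at 7 and those of lower genes at 14 or, without control replicate 1, 15, when UBE2U passed (-0.15). UBE2E1 (-0.32) passed when restricted to _at and _a_at probe sets. The intensity trend carries no level in centred values.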
